A study of Mus musculus with 51 samples.

Results

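H3K4me3 sites of early pachynema were set against those of late pachynema in the sorted spermatocytes of the adult mouse testis. The peak lists of the 2 early and the 2 late pachynema libraries, made with the EpiCypher H3K4me3 antibody, were merged into 9917 sites by joining overlapping or adjoining peaks. A site was called gained when both late lists and neither early list held a peak there, lost when both early lists and neither late list did, and kept when all 4 lists did. This gave 217 gained sites, 113 lost sites and 4076 kept sites. The classes were set by peak calls in these 4 lists, so their numbers are a description and carry no test.

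Nuclei of wild-type adult male C57Bl/6J mice were extracted from fixed whole testis, labelled with antibodies to intra-nuclear markers and sorted by DNA content and fluorescence. Early and late pachynema were each represented by 2 experiments, and the sorting separated them by the testis-specific linker histone H1t, which marks late pachynema and not early pachynema. Both populations are sorted enrichments, and the study found nuclei of neighbouring substages in them, among them zygotene nuclei in early pachynema. By the study's estimates, the late pachynema sort of experiment 2 was the least pure of the 4. All groups share genotype and strain and none was treated. The labels do not say whether experiments 1 and 2 came from separate animals, so the spread between them may be technical. Leptonema, zygonema and diplonema lists of the same antibody, with 2 libraries each, and lists of an H3K4me2/3 antibody (Abcam) and of H3K9ac, with 1 library for each stage, served as readouts that did not enter the rule. In all, 20 lists of 51 samples were held, and the 4 lists of the comparison contain 25843 of the 238528 peaks.

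Trimethylation of histone H3 at lysine 4 is laid down on the nucleosomes around active or poised transcription start sites (TSSs) by methyltransferases of the SET1 and MLL type, which are drawn to CpG-rich DNA. In meiotic prophase a further H3K4 methyltransferase, PRDM9, marks the future sites of recombination, and pachynema is the long stage in which homologous chromosomes are fully synapsed and recombination is completed. During pachynema spermatocytes are known to start transcribing many genes whose products are needed only after meiosis, in the acrosome and the flagellum of the spermatid. Genes of premeiotic replication and of early recombination are known to be used before this stage.

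Promoters of both kinds are shown first, since the classes had different median CpG contents. Each line gives 250 bases before to 50 bases after the start of a RefSeq transcript (GRCm38.p6, the same build as mm10), read 5′ to 3′ on the strand of the gene, with CpG dinucleotides in capitals. The first 4 belong to gained genes of the acrosome and flagellum (Spink2, chr5:77211156-77211455, minus strand; Crisp2, chr17:40794097-40794396, minus; Spag17, chr3:99885167-99885466, plus; Cfap43, chr19:47837312-47837611, minus).
Spink2: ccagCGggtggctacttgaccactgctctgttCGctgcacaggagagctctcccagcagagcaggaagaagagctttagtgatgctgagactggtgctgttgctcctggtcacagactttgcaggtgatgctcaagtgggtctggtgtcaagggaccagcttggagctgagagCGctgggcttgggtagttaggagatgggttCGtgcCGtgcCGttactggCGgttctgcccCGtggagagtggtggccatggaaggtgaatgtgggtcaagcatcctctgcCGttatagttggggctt
Crisp2: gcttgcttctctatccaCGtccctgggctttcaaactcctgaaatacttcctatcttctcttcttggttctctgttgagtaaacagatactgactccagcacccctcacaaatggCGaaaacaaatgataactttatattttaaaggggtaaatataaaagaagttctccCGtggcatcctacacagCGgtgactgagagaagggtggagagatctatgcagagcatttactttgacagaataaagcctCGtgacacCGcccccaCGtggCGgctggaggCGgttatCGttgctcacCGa
Spag17: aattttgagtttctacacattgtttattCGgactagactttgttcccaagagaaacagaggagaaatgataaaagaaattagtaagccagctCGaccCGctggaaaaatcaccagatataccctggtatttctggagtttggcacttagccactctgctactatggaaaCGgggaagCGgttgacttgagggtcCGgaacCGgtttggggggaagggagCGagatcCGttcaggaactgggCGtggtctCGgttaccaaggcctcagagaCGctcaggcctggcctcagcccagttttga
Cfap43: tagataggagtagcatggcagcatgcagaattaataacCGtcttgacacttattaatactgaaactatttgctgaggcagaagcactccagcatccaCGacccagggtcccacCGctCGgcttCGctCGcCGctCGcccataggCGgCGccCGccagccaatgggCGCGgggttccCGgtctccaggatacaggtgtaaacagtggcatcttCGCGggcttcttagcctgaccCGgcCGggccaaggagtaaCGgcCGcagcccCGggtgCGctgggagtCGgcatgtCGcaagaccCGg
The next 4 belong to lost genes of replication, recombination and the chromosome axis (Mcm5, chr8:75109259-75109558, plus; Gins3, chr8:95633309-95633608, plus; Hormad2, chr11:4441033-4441332, minus; Ankrd31, chr13:96748043-96748342, plus).
Mcm5: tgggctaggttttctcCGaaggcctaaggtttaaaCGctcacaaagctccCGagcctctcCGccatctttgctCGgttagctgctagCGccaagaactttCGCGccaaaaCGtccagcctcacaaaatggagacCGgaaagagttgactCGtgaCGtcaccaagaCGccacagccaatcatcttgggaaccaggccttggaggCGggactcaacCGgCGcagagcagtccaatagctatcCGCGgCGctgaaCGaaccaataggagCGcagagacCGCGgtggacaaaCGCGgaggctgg
Gins3: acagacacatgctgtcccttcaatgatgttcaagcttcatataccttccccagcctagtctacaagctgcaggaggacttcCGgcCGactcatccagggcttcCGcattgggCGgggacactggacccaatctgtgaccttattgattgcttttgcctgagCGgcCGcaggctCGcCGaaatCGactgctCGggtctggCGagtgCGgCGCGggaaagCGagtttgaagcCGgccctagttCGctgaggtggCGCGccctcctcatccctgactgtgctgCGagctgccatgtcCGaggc
Hormad2: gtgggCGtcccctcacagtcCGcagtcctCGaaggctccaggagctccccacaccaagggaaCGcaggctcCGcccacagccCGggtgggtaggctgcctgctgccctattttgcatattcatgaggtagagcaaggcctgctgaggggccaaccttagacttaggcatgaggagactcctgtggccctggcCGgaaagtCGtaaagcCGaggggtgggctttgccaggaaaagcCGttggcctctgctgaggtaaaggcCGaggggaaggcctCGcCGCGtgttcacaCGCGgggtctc
Ankrd31: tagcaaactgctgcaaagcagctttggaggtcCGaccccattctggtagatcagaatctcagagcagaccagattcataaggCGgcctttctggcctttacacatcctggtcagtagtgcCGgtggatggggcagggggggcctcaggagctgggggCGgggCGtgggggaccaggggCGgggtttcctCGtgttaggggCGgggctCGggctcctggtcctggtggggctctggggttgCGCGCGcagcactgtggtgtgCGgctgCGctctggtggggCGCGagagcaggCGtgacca
The last 2 are kept genes of the same gene groups, chosen after their values were seen (Mcm7, chr5:138171834-138172133, minus; Odf2, chr2:29889470-29889769, plus).
Mcm7: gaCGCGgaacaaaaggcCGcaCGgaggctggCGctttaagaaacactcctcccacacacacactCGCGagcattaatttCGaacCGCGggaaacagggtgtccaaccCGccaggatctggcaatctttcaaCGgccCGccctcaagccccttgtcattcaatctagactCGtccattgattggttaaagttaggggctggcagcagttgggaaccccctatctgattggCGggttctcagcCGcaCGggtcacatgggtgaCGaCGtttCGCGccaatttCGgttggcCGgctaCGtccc
Odf2: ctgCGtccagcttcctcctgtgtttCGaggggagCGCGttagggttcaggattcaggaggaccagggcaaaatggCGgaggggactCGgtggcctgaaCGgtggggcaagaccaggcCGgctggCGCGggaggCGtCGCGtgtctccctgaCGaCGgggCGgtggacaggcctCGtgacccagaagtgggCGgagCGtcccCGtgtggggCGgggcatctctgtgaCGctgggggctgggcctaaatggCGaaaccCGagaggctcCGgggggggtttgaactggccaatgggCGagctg
The Spink2 window holds 9 CpGs, that of Crisp2 11, that of Spag17 12 and that of Cfap43 25. The gene annotation gives Spink2 a further start upstream, at base 77211471, which lies outside the window shown. Among the lost genes, the windows hold 16 at Hormad2, 17 at Ankrd31, 21 at Gins3 and 25 at Mcm5, and among the kept genes 24 at Mcm7 and 26 at Odf2. Among the gained genes shown, the CpG count thus ran from 9 to 25.

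The 4 lists differed in length more between libraries of 1 stage than between the stages. They held 6647 and 4883 peaks at early pachynema and 5189 and 9124 at late pachynema in experiments 1 and 2. The late list was thus shorter by 1458 peaks in experiment 1 and longer by 4241 in experiment 2 (two-sided exact permutation test, p = 0.667; 2 libraries against 2 cannot go below 0.333). The second late library stood apart, with 87.5% of its peaks at a TSS against 95.8% to 96.6% in the other 3, and a median peak width of 578 bp against 380 to 491 bp. Of its own, it held 2944 sites that no other list shared. The lists give no read counts, so the depth behind a call is unknown and a site without a peak may carry the mark below the calling threshold. In sorted pools, fewer nuclei with the mark and less of the mark in each nucleus cannot be told apart.

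Few sites changed in both experiments. Gained sites made up 2.19% and lost sites 1.14% of the merged sites, and 41.1% were kept. The remaining 5511 sites were mixed: 3476 had a peak in 1 list only, 803 in 1 early and 1 late list and 1232 in 3 lists. Just outside the rule lay 667 sites with a peak in both late lists and in 1 early list, where the median width of the lone early peak was 363 bp, and 565 sites with a peak in both early lists and in 1 late list, where the lone late peak had a median of 440 bp. By the Jaccard index, which is the share of merged sites that 2 lists have in common, early library 2 was as close to late library 1 (71.5%) as to early library 1 (70.6%), while the 2 late libraries shared 53.1%. The gained count rose to 854 sites without early library 1 and to 3164 without late library 1, and the lost count to 576 without early library 2, 192 without late library 1 and 605 without late library 2. With lists cut to the 4883 widest peaks each, 254 sites were gained and 248 lost, and these included 135 of the 217 gained sites and 45 of the 113 lost sites.

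**Figure D1:**
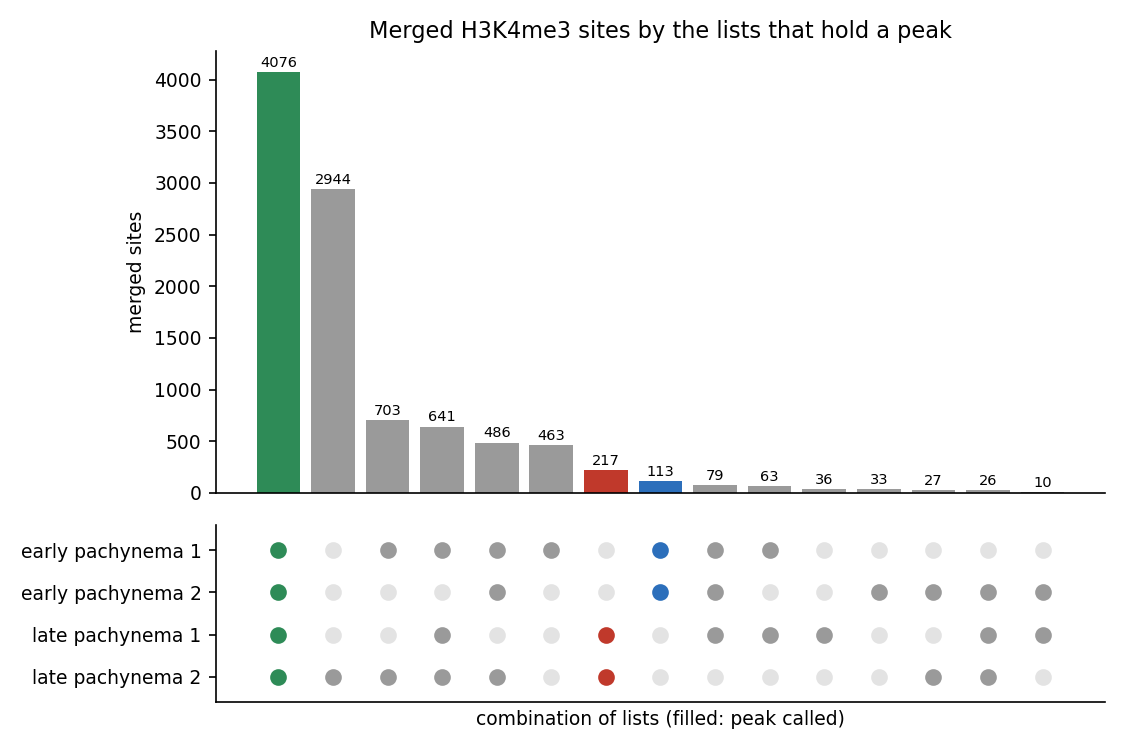
Number of merged H3K4me3 sites (vertical axis) for each combination of the 4 lists that held a peak, shown by the filled dots beneath each bar. Sites in all 4 lists (4076, green) and sites of late library 2 alone (2944) were the most frequent, against 217 gained (red) and 113 lost sites (blue).

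Most sites of each class lay at a TSS, with the lowest share among gained sites. A site was counted at a TSS when it overlapped the 500 bp on either side of a GENCODE M21 transcript start. This held for 176 of 217 gained sites (81.1%, exact 95% binomial interval 75.3 to 86.1%), 101 of 113 lost sites (89.4%, 82.2 to 94.4%) and 4013 of 4076 kept sites (98.5%, 98.0 to 98.8%), against 87.2% of all merged sites. The intervals cover counting error over sites only. Starts of noncoding genes alone accounted for 28 gained sites (12.9%), 5 lost sites (4.42%) and 70 kept sites (1.72%). Of the 41 gained sites away from a TSS, 14 overlapped an exon, 7 an intron and 20 lay between genes, and 25 were over 5000 bp from the nearest start. None of the 12 lost sites away from a TSS overlapped an exon, 5 lay in an intron and 7 between genes. No kept site lay within 1000 bp of a gained or a lost site, and within 5000 bp one lay near 5 gained and 2 lost sites.

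Changed sites were narrower than kept sites by their medians. The median width of the peaks at gained sites was 297 bp in late library 1 and 708 bp in late library 2, and at lost sites 279 and 217 bp in early libraries 1 and 2. Kept sites had medians of 621 and 414 bp at early pachynema and 482 and 808 bp at late pachynema. Against all peaks of late library 2, with a median of 578 bp, the gained sites were wider, and in the other 3 lists the changed sites lay below the median of the list.

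In the other stages, which the rule did not use, gained sites were marked at diplonema and less often before pachynema. Diplonema lists held a peak at 194 (89.4%) and 217 (100%) of the 217 gained sites in experiments 1 and 2. Leptonema lists did so at 61 (28.1%) and 101 (46.5%), and zygonema lists at 50 (23.04%) and 43 (19.8%). The mean share was 94.7% ± 7.49 (SD, n = 2) at diplonema and 29.4% ± 11.9 (SD, n = 4) in the 4 earlier libraries, a difference of 65.3 points (p = 0.0667 by a two-sided exact permutation test, where 2 against 4 libraries cannot give less). All merged sites, measured in the same way, had shares of 76.3% and 69.8%, with a difference of 6.46 points (exact permutation test, p = 0.733). A peak in both diplonema lists and in none of the 4 earlier lists was found at 105 gained sites (48.4%), against 832 of all merged sites (8.39%). At least 1 of those 4 earlier lists held a peak at 108 gained sites (49.8%), against 81.7% of all merged sites. Chosen without early library 1, the gained sites gave a difference of 24.9 points, and chosen without late library 1 a difference of 35.4 points (exact permutation p = 0.133).

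Lost sites ran the other way. Leptonema lists held a peak at 93 (82.3%) and 102 (90.3%) of the 113 lost sites and zygonema lists at 100 (88.5%) and 80 (70.8%). Diplonema lists did so at 18 (15.9%) and 73 (64.6%). The difference between diplonema and the 4 earlier libraries was −42.7 points (40.3% ± 34.4, SD, n = 2, against 83.0% ± 8.80, SD, n = 4; p = 0.0667 by the same exact test, again its lower limit). The 2 diplonema libraries were far apart here, and the list of experiment 2, with 12071 peaks against 6645, held 93.2% of all merged sites. At 36 of the 113 lost sites neither diplonema list had a peak. Kept sites had peaks at 88.9% to 99.7% in each of the 6 libraries, with a difference of −1.15 points (exact permutation test, p = 0.733). The study found zygotene nuclei in the early pachynema sort, and their part in the lost class was not tested. The late pachynema sorts were not pure either, and the part of other nuclei in the gained class was not tested.

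**Figure D2:**
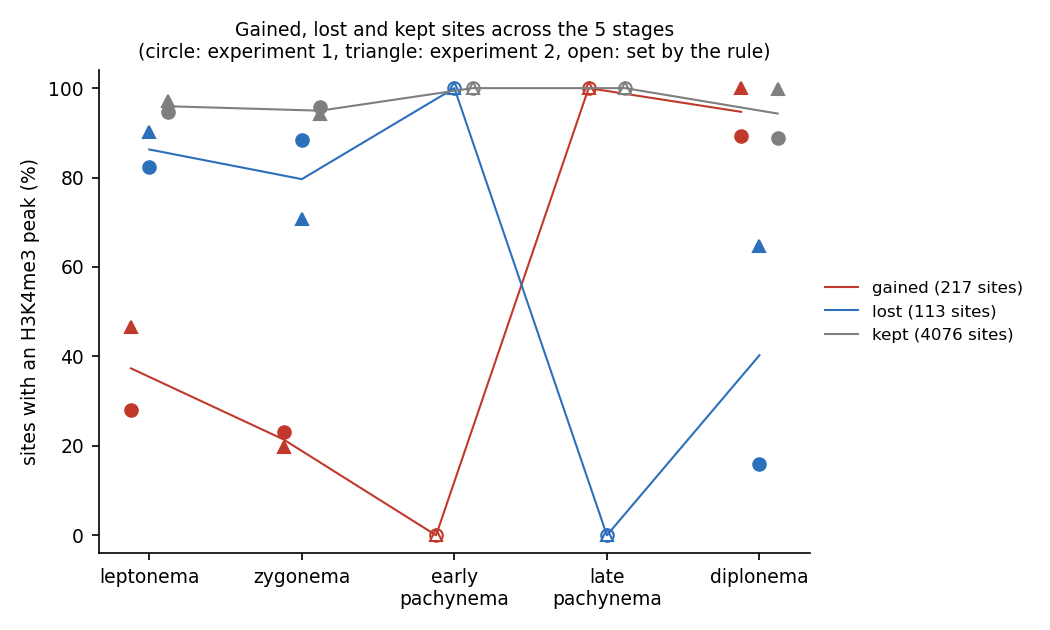
Share of gained, lost and kept sites with an H3K4me3 peak (vertical axis, percent) in each library of the 5 stages; circles are experiment 1, triangles experiment 2, lines join the means, and open symbols at early and late pachynema are set by the rule. Diplonema holds 89.4% and 100% of the gained sites, and 15.9% and 64.6% of the lost sites.

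Genes were read in the same way, by the peaks within 500 bp of any start of a protein-coding gene. Of 20780 autosomal protein-coding genes, 154 were gained (0.741%), 102 lost (0.491%) and 4580 kept (22.0%), and 8966 had a peak in at least 1 of the 4 lists. Without early library 1, 822 genes were gained, and without late library 1, 1839. Without early library 2, 438 genes were lost, without late library 1, 165, and without late library 2, 604. With only the peaks above the median width of each list 239 genes were gained, and with equal list sizes 251 were lost.

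Among acrosome and flagellum genes, taken from lists written with earlier results of these data known, some were gained and 0 lost. Of 37 acrosome genes, 3 were gained and 0 lost, which is 8.11% against the 0.741% of all coding genes. Of 75 flagellum genes, 7 were gained (9.33%) and 0 lost. Flagellum genes had a peak at 26 and 19 members in the early libraries (34.7% and 25.3%), 32 and 48 in the late libraries (42.7% and 64.0%) and 55 and 58 at diplonema. Acrosome genes had one at 6 and 5 members (16.2% and 13.5%), then at 10 and 16 (27.03% and 43.2%), and then at 15 and 17. All coding genes had a peak at 34.0% and 25.5% in the early and at 26.7% and 40.3% in the late libraries. Flagellum genes thus stood near the share of all genes at early pachynema. At diplonema all coding genes had a peak at 29.3% and 46.8%, flagellum genes at 73.3% and 77.3%, and acrosome genes at 40.5% and 45.9%. In experiment 1 all coding genes with a peak went from 7055 to 5558 while flagellum genes went from 26 to 32. In experiment 2, where the late list was the longer, all coding genes went from 5305 to 8383 and flagellum genes from 19 to 48. Without late library 2, which stood apart, 8 flagellum and 4 acrosome genes were gained, where 168 of all 20780 coding genes were. Without late library 1 the counts were 22 and 10, where 1839 of all coding genes were gained. Without early library 1, 12 flagellum genes were gained, where 822 of all were. With only the peaks above the median width of each list the flagellum count was 3, where 239 of all were gained. With equal list sizes it was 5, where 201 of all were. The 0.741% belongs to the main setting only.

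**Figure D3:**
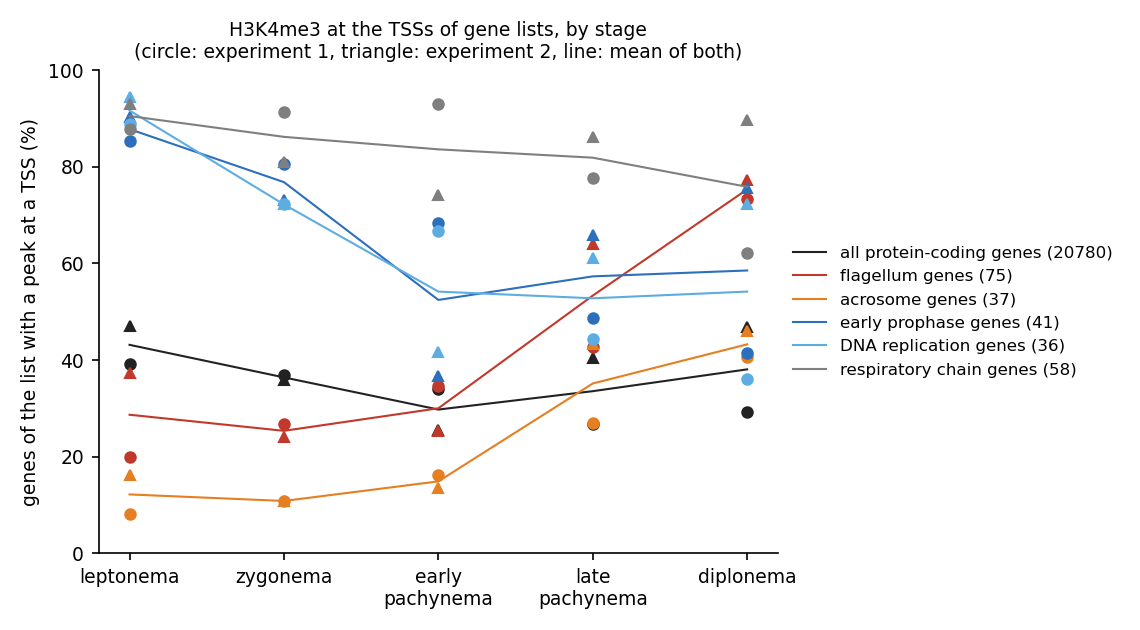
Share of the genes of each list with an H3K4me3 peak within 500 bp of a start (vertical axis, percent), by stage; circles are experiment 1, triangles experiment 2, lines join the means and the legend gives the number of genes. Flagellum genes go from 26 and 19 of 75 at early pachynema to 55 and 58 at diplonema.

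The gained acrosome genes were Spink2, a protease inhibitor of the acrosome, Adam3, a membrane protein that sperm need to bind the egg coat, and Crisp2, a cysteine-rich secretory protein of the acrosome and the outer dense fibres. At the Spink2 start the late peaks measured 624 and 606 bp and the diplonema peaks 1281 and 1332 bp. The Adam3 start had late peaks of 525 and 890 bp and diplonema peaks of 1380 and 1073 bp, and that of Crisp2 had 258 and 692 bp followed by 619 and 1165 bp. All 3 lacked a peak in every leptonema and zygonema library, and at early pachynema by the rule.

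Spag17, a protein of the central pair of the axoneme, had peaks of 416 and 1070 bp at late pachynema and 745 and 937 bp at diplonema. Ccdc40, which sets the spacing of the inner dynein arms, had 175 and 482 bp, then 700 and 1858 bp. Cfap44, a protein of the axoneme, had 188 and 633 bp, then 428 and 607 bp. Neither Spag17, Ccdc40 nor Cfap44 had a peak at leptonema or zygonema.

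Odf4, of the outer dense fibres, had late peaks of 160 and 623 bp and diplonema peaks of 678 and 842 bp, and none at leptonema or zygonema. The other 3 gained flagellum genes had a peak in the second leptonema library and in no other library of leptonema or zygonema. These were Cfap43, a partner of Cfap44 (1459 bp at leptonema, 290 and 749 bp at late pachynema), Cfap70 (144 bp, then 185 and 423 bp) and Catsperg1, a subunit of the sperm calcium channel (824 bp, then 178 and 649 bp). For 6 of the 7 flagellum genes, the late peak of experiment 1 was under 300 bp, below the median of 426 bp of that list.

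Other gained genes with known parts in the axoneme or the sperm tail were seen after their values were known and were in none of the lists. Cfap46, Catsperz, Dnah14, Wdr63, Wdr66, Pih1d3 and Slc26a8 had no peak in any leptonema or zygonema library and a peak in both diplonema libraries. Ppp3r2, the sperm-specific regulatory subunit of calcineurin, had peaks of 652 and 729 bp at late pachynema and 1599 and 1827 bp at diplonema. Spag1, an assembly factor of dynein arms, had late peaks of 597 and 1121 bp and was also marked in both leptonema libraries (573 and 376 bp) and in the first zygonema library (1200 bp).

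Of the 35 genes of the meiotic divisions, 1 was gained and 1 lost (2.86% each, against 0.741% and 0.491% of all coding genes) and 19 were kept. Pttg1, the securin that holds back separase until anaphase, was gained with peaks of 164 and 1041 bp at late pachynema and 1061 and 1533 bp at diplonema, and had 191 bp in the first zygonema library. Fbxo5, an inhibitor of the anaphase-promoting complex, was lost: its peaks were 1351 and 1711 bp at leptonema, 1085 and 632 bp at zygonema and 305 and 193 bp at early pachynema, and neither late nor diplonema lists held one. Among 29 piRNA pathway genes, 1 was gained (3.45% against 0.741%) and 16 were kept. The gained gene was Pnldc1, the exonuclease that trims piRNA 3′ ends, with late peaks of 188 and 395 bp. Pnldc1 had already been marked in the first leptonema and the second zygonema library (336 and 289 bp).

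Among replication and early prophase genes a few were lost, more were kept and 0 were gained. Of 36 replication genes, 2 were lost (5.56% against 0.491% of all coding genes) and 11 kept. Of 41 early prophase genes, which serve DNA breaks, strand exchange and the chromosome axis, 2 were lost (4.88%) and 12 kept. Without early library 2 each count was 4, where 438 of all 20780 coding genes were lost. With equal list sizes 3 replication genes and 1 early prophase gene were lost, where 251 of all coding genes were. The wider part of each list also gave 1 early prophase gene, where 130 of all coding genes were lost. The 0.491% belongs to the main setting only. Between the libraries, however, replication genes had a peak at 24 and 15 members at early pachynema and at 16 and 22 at late pachynema, so the ranges of the 2 stages overlapped. Early prophase genes had a peak at 28 and 15 members and then at 20 and 27. Larger numbers stood at leptonema, with 32 and 34 replication genes and 35 and 37 early prophase genes. The diplonema lists had 13 and 26 replication genes and 17 and 31 early prophase genes. All coding genes had a peak at 39.2% and 47.1% at leptonema and at 29.3% and 46.8% at diplonema.

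Mcm5, a subunit of the replicative helicase, had the lost coding site with the largest mean of the 2 early widths. Its peaks measured 1014 and 1418 bp at leptonema, 646 and 673 bp at zygonema and 914 and 545 bp at early pachynema, with none at late pachynema or diplonema. Gins3, of the GINS complex that joins that helicase, had 386 and 810 bp, 455 and 485 bp, and 228 and 205 bp at the same stages and a peak of 413 bp in the second diplonema library. Mcm8, a helicase of homologous recombination, shares its site with Trmt6 and had 728 and 183 bp at early pachynema.

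Hormad2, an axis protein that marks unsynapsed chromosomes, had early peaks of 427 and 285 bp and none at late pachynema, and was marked again at diplonema (921 and 1455 bp). Ankrd31, which takes part in placing DNA breaks, had 262 and 353 bp at early pachynema after 450 to 598 bp in the 4 libraries before, and 481 bp in the second diplonema library. Exo1, the exonuclease that resects DNA ends, was not in the lists. It had 186 and 387 bp at early pachynema and 434 to 718 bp in the 4 libraries before, with no peak at late pachynema or diplonema.

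**Figure D4:**
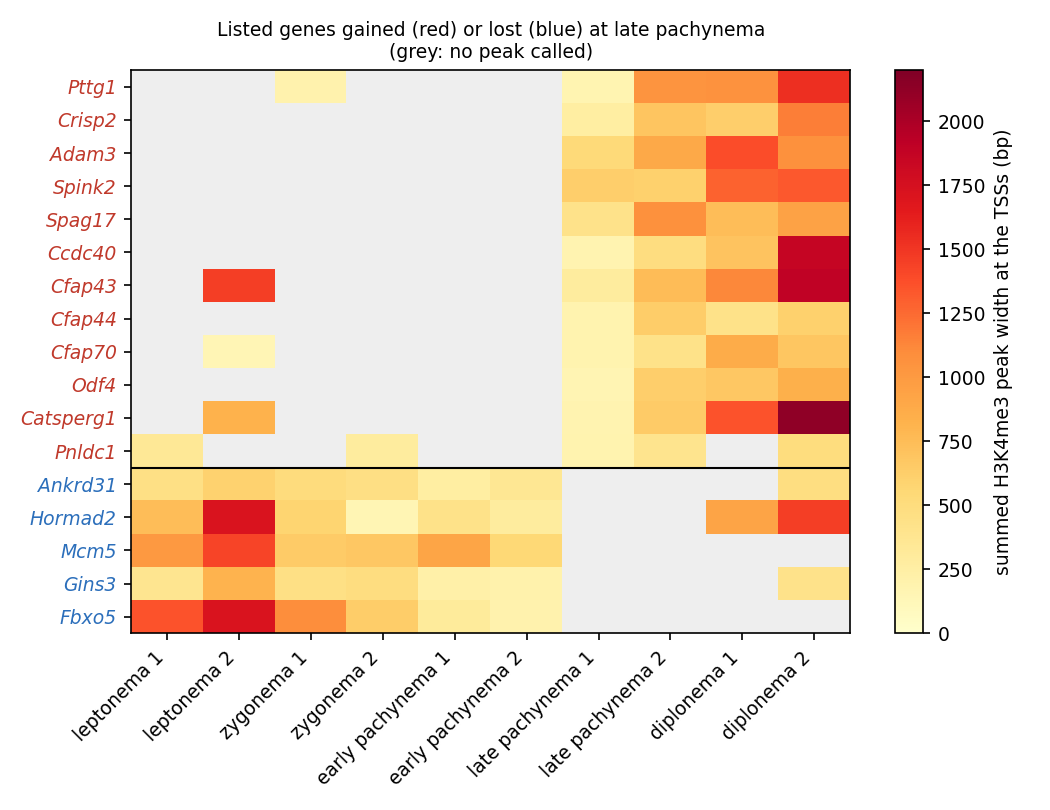
Summed width of the H3K4me3 peaks at the starts (colour, bp; grey, no peak called) of the listed genes that were gained (red names) or lost (blue names), in the 10 H3K4me3 libraries. Spink2, Adam3 and Crisp2 have no peak at leptonema or zygonema, and Mcm5 and Fbxo5 none at diplonema. Whether a peak is called at early and late pachynema is set by the rule.

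The 12 widest gained sites at protein-coding starts, by the mean of the late widths, began with Socs1, Ovol2 and a histone gene cluster. Socs1, a suppressor of cytokine signalling, had late peaks of 1326 and 1966 bp (chr16:10784186-10786221), and had also been marked at leptonema (943 and 1872 bp) and zygonema (181 and 1241 bp). Ovol2, a zinc finger transcription factor, had 456 and 2695 bp (chr2:144330105-144332799). Egr4, an early growth response factor of the germ line, had 536 and 2384 bp (chr6:85511587-85513970) with no peak at leptonema or zygonema. Dmrtb1, known for its part in the entry into meiosis, had 944 and 1315 bp (chr4:107682944-107684258). A site of 2561 bp on chromosome 3 covers the starts of Bola1 and of the histone genes Hist2h2ab, Hist2h2ac and Hist2h2be. Near-identical copies of histone genes can share reads.

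The others were Arhgap20, 4933414I15Rik, B4galnt1, Paqr9, March11, Taok3 and Rnf44, with mean late widths of 979 to 1354 bp. Among the 12, 4933414I15Rik (1077 and 1554 bp) and Egr4 had no peak in the 4 libraries of leptonema and zygonema. Socs1, Paqr9, Taok3 and Rnf44 had one in all 4, and among the H3K4me3 libraries they lacked a peak at early pachynema only. All 12 had a peak in both diplonema libraries.

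A gained site wider than any at a coding start lay at the starts of the noncoding genes Gm49461 and Gm49462 (chr2:68564909-68569178). Its peaks measured 412 and 4270 bp at late pachynema and 3650 and 4716 bp at diplonema, with none at leptonema or zygonema. The widest gained sites away from a TSS lay between genes at chr13:113031415-113032891 (1327 and 1390 bp), chr5:149831012-149832508 (1082 and 1472 bp) and chr15:97619511-97620868 (976 and 1330 bp). The last of these was 60163 bp from the nearest start and had no peak at leptonema or zygonema. On chromosome 4, 5 gained sites at Ccl27a, Gm20878, Gm3892, Gm21586 and Gm10593, from base 41773615 to base 42552451, belong to a multi-copy region in which reads can be shared between copies. They are therefore uncertain as 5 separate events. Gained sites at chr4:42650700-42651318 and at 4930578G10Rik (chr4:42734755-42735792) lie just beyond, and whether they belong to the same region was not tested.

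After Mcm5, the widest lost sites at protein-coding starts by the mean of the early widths were those of Stau2, a double-stranded RNA-binding protein (1041 and 334 bp at early pachynema), and the pair Fam210a and Rnmt, of which Rnmt methylates the cap of messenger RNA (797 and 453 bp). The others named here were Cacul1, Itgb1, the pair Aldh7a1 and Phax, the pair Arsk and Ttc37, Lrp11, Rps15a, 3110040N11Rik and the pair Mcm8 and Trmt6, with mean early widths of 455.5 to 587.5 bp. Each of these named sites had a peak in every leptonema and zygonema library, Mcm5 had none at diplonema, and among them the site of Arsk and Ttc37 alone had one in the first diplonema library. The widest lost sites away from a TSS were at chr3:17786220-17786788 (521 and 368 bp), which had no peak in any other stage, chr8:108849937-108850494 in an intron (315 and 553 bp) and chr15:37135445-37135909 (444 and 386 bp).

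At a single place a gained and a lost site lay within 5000 bp of each other. The gained site at Hspb9, a small heat shock protein of the testis (chr11:100713109-100714572), lies 677 bp from the lost site at Kat2a, a histone acetyltransferase (chr11:100712198-100712431). Peaks at Hspb9 measured 339 and 1464 bp at late pachynema and 1720 and 2331 bp at diplonema, with none at leptonema or zygonema. Those at Kat2a measured 187 and 217 bp at early pachynema, 249 bp in the first leptonema and 326 bp in the first zygonema library. In the second diplonema library 1 peak of 2331 bp covered both places.

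The H3K4me2/3 antibody, which also binds dimethylated H3K4, gave peaks at nearly all sites of each class at both stages. Of 217 gained sites, 214 (98.6%) had an H3K4me2/3 peak at early and 216 (99.5%) at late pachynema, in lists of 17561 and 19711 peaks, against 90.9% and 95.9% of all merged sites and 99.9% of kept sites at each stage. Their median width was 1209 bp at leptonema, 1126 bp at zygonema, 1156 bp at early pachynema, 2493 bp at late pachynema and 2979 bp at diplonema. Among 213 gained sites with a peak in both lists, 207 were wider at late pachynema, by a median of 1.06 on the log2 scale, against 0.17 at 106 lost sites, 0.53 at 4069 kept sites and 0.52 at all merged sites. Of 113 lost sites, 106 had an H3K4me2/3 peak at both stages and 3 at late pachynema alone, with medians of 1131 bp at early and 1283 bp at late pachynema.

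From zygonema to diplonema, neither of which entered the rule, the H3K4me2/3 peaks at gained sites widened by a median of 1.27 on the log2 scale (176 of 184 wider). Kept sites widened by 0.59, and lost sites changed by −0.12, with 47 wider and 57 narrower. There was 1 library for each antibody and stage, so these differences have no replicate check. All H3K4me2/3 libraries belong to experiment 2, whose early and late H3K4me3 lists helped to choose the sites.

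**Figure D5:**
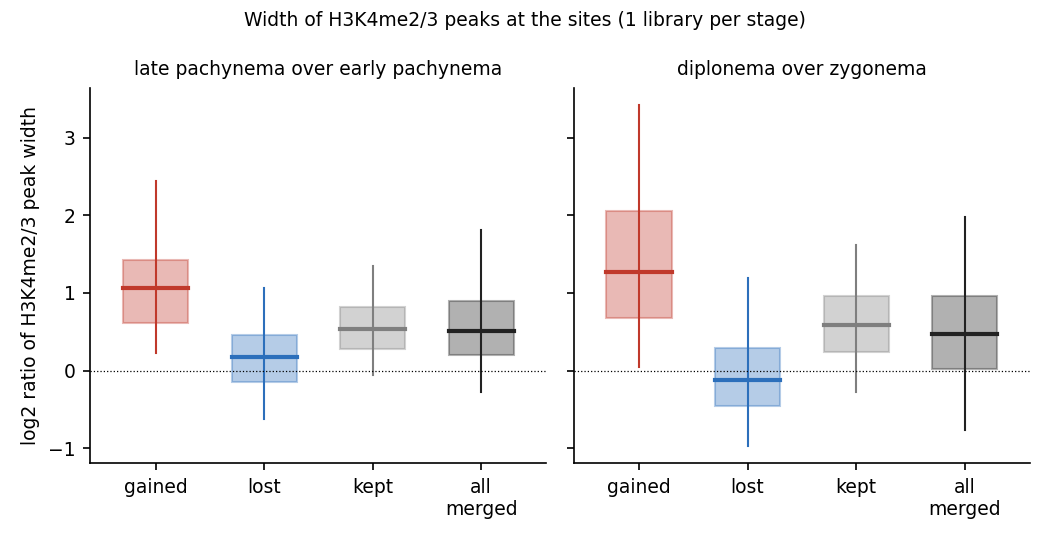
Log2 ratio of H3K4me2/3 peak width, late over early pachynema (left) and diplonema over zygonema (right), for the sites of each class; bars are medians, boxes the quartiles and lines the 5th to 95th percentile over sites, with 1 library per stage. The medians of gained sites, 1.06 and 1.27, lie above those of kept sites, 0.53 and 0.59.

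H3K9ac, an acetylation found at active promoters, was held in lists of very different length, with 16003 peaks at zygonema, 7744 at early and 1727 at late pachynema. Gained sites had an H3K9ac peak at 35.0% in zygonema, 59.4% in early and 13.8% in late pachynema. Lost sites had one at 90.3%, 76.1% and 3.54%, and kept sites at 97.0%, 98.5% and 35.99%. In every class fewer sites had an H3K9ac peak at late than at early pachynema, as had all merged sites (67.8% and 17.1%).

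At the kept sites single widths were compared relative to the library median, so a general shift of width was not tested. Summed peak widths were compared on a log2 scale after centring each library on its median, with limma and Benjamini-Hochberg adjustment. Of 4076 sites, 0 were wider and 2 (0.0491%) were narrower at late pachynema at an adjusted p under 0.05, against 161 wider and 176 narrower at an unadjusted p under 0.05. Without centring the median log2 change over the sites was 0.25, against −0.05 with it, and 0 sites were called. Quantile normalization and a block of crossed experiment numbers also called 0. The count was 7 without early library 1, 0 without early library 2, 46 without late library 1 and 1 without late library 2. Both late widths lay above both early ones at 15.1% of sites and below them at 18.0%.

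The start shared by Aimp2 and Pms2 was 1 of the 2 narrower sites. Pms2 is a mismatch repair gene and Aimp2 a scaffold of tRNA synthetases. Peaks at this start measured 844 and 719 bp at early and 211 and 214 bp at late pachynema (log2 change −2.17 ± 0.49 SE, adjusted p = 0.0170, limma). The other, between genes at chr10:37136194-37137278, measured 1085 and 630 bp and then 195 and 245 bp (−2.22 ± 0.48 SE, adjusted p = 0.0151, limma). Neither call held without early library 1, early library 2 or late library 2 (adjusted p of 0.110 to 0.800, limma). Without late library 1 the adjusted p was 0.00634 and 0.00806 (limma). Each of these fits has 1 library in an arm, which is assumed to vary like the pair of the other stage. The lowest p among wider coding sites belonged to Gnao1, a G protein subunit, with 1386 and 187 bp at early and 1124 and 3545 bp at late pachynema (adjusted p = 0.0678, limma), where the early width exceeded the late one in experiment 1. Dynlt1f, of a multi-copy family, Trim13, Golga7 and Gzf1 followed, with log2 changes of 1.58 to 1.83 and adjusted p of 0.0678 to 0.103 (limma).

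Promoters of gained sites had a lower median CpG content than those of kept sites and a higher one than all promoters. RefSeq promoters within 500 bp of a site numbered 179 for gained, 98 for lost and 4770 for kept sites, beside 31356 on all autosomes. The median ratio of observed to expected CpGs was 0.65, 0.72 and 0.88 in these classes and 0.39 over all promoters. A ratio under 0.5 was found at 31.3% of gained, 10.2% of lost and 4.68% of kept promoters, against 57.6% of all. The GC content had medians of 57.7%, 59.2% and 64.0%, against 53.0%.

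Of short words, 5 were searched on both strands of these windows. GGGCGG, the GC box, was in 51.4% of gained, 66.3% of lost and 70.9% of kept promoters and in 35.96% of all. TGACG, the core of the cyclic AMP response element, was in 20.7%, 34.7% and 39.7%, against 20.98% of all. CCAAT, the NFY box, was in 41.3%, 53.1% and 35.8%, against 37.3% of all. GTTGCC, a word of RFX sites, was in 12.8%, 16.3% and 14.0% and AACNG, the core of MYB sites, in 83.8%, 75.5% and 78.7%, against 12.2% and 80.1% of all. AACNG can overlap a GTTGCC match on the opposite strand. Matches of such short words are a description of the letters and of base composition.

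Marker genes bore on the labels. Sycp3, a sorting marker and axis protein, was kept, with 875 and 678 bp at early and 493 and 1112 bp at late pachynema. Sycp1, of the transverse filaments of the synaptonemal complex, had 689 bp in each early library and 1465 bp in late library 2, and no peak in late library 1. Hist1h1t, the gene of H1t on which the sort of the 2 stages rests, had no peak in any of the 4 lists, and neither had Stra8, a gene of meiotic entry. Of these 4 sorting markers, 4 and 3 had a peak in the leptonema lists, 2 and 3 at zygonema and 1 and 2 at diplonema. Of 5 spermatocyte markers (Sycp1, Sycp2, Sycp3, Dmc1 and Hormad1), 4 had a peak in both early lists and 3 and 4 in the late lists. Peaks at 14 markers of myoid, endothelial and immune cells were absent from all 4 lists. Of 12 Sertoli cell markers 1 had a peak in each list, of 9 Leydig cell markers 1 in late library 2 alone, and of 15 spermatogonial markers 2, 2, 1 and 4. Their part in the gained and lost classes was not tested.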

How the data were processed

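H3K4me3 (EpiCypher), H3K4me2/3 (Abcam) and H3K9ac peak lists of sorted nuclei of 5 substages of meiotic prophase were used. The authors sheared the chromatin by sonication, aligned reads to mm10 with BWA mem 0.7.12 and called peaks in each library with MACS2 2.1.2 with the broad setting, against input chromatin from the matching stage for H3K4me3. The control for H3K9ac is not given in the sources used here. The deposited lists give chromosome, start and end in bases on chromosomes 1 to 19, with no score or read count, so depth is unknown, list length moves with library quality, and intervals cover counting over sites only. The authors' spike-in scaling of signal does not enter the lists.

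Peaks of the 4 lists were merged with Python 3.11.15, NumPy 2.4.6 and SciPy 1.17.1. A peak counted at a site with an overlap of 1 bp. TSSs were 125891 windows of 500 bp on either side of GENCODE M21 starts. Shares have exact binomial 95% intervals, and libraries were compared by two-sided exact permutation tests. Widths at kept sites were tested with limma 3.58.1 (R 4.3.3; log2 widths centred on the library median, trend and robust, adjusted p under 0.05). In simulated widths 62 of 100 sites changed by 1 log2 unit and 100 of 100 changed by 2 were called, as were 10 of 3876 unchanged ones. Every simulated site had the same spread, the median deviation within the early pair. Real sites differ in spread, so these rates do not give the power of the test on them. The merging was tested on simulated lists.

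Genes named are the sorting markers, the 12 widest gained and lost coding TSS sites, the 3 widest of each away from TSSs, the gained or lost members of the gene lists, and kept sites called by width or, where none was, the 5 with the lowest p. Of the widest lost coding sites, 1 is not reported here. The members and lists were chosen with earlier results of these data known. Alternatives were another merge distance, equal list sizes, the peaks above each list's median width, an overlap of 0.5 of the shorter of peak and site, other TSS sets, other scalings, a replicate block and leaving out each library. The crossed block and the alternatives for single gene lists were added after seeing the data.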

Additional observations from a re-analysis of the deposited data

How the results depend on the processing

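A merge distance of 500 bp gave 220 gained, 109 lost and 4077 kept sites, and requiring an overlap of 0.5 of the shorter of peak and site changed none of the 3 counts. With equal list sizes 248 sites and 251 genes were lost, against 113 and 102. With only the peaks above the median width of each list 1558 sites were kept and 239 genes gained, and 55 of the 217 gained and 6 of the 113 lost sites had a match in the same class. Leaving out each library gave 243 to 3164 gained, 161 to 605 lost and 4100 to 4717 kept sites, 168 to 1839 gained and 114 to 604 lost genes, and 0 to 46 kept sites called by width. The diplonema difference stayed between 24.9 and 63.3 points for gained and between −39.1 and −31.3 points for lost sites when a library was left out, and was 55.1 and −34.2 points with the wider peaks alone. No 2 against 4 test can pass 0.05. With protein-coding transcripts only, 65.9% of gained and 96.3% of kept sites lay at a TSS, and 82.3% of lost sites.

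The experiment number as a replicate block called 2 kept sites by width, as did the fit without it. Samples with the same number deviated weakly in opposite directions over kept sites (correlation −0.12). With 2 libraries per stage the crossed pairing has the same value with the opposite sign. The correlation therefore cannot show whether the numbers pair the libraries. The crossed replicate block, added after seeing the data, called 0. Quantile normalization also called 0 and no centring 0, with a lowest adjusted p of 0.0953 and 0.998 (limma) and 323 and 115 sites at an unadjusted p under 0.05. The lists hold no read counts, so a missing peak at this depth does not show absence of the mark. The causes of these shifts were not tested.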

Other observations

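Of 22 regulators of the pachytene programme 13 were kept (59.1%, against 22.0% of all coding genes) and 0 gained or lost. Among genes with a peak in at least 1 of the 4 lists, 13 of 19 regulators were kept, against 51.1% of coding genes. Sox5, Zfp42 and Fhl5 had no peak in the 4 lists, and Rfx4, Spz1 and Foxj1 had one in late library 2 alone. Among the kept were Mybl1, the transcription factor A-MYB (1289 and 952 bp at early, 1309 and 1162 bp at late pachynema), Tcfl5 (731 and 848 bp, 695 and 942 bp), Rfx2 (1173 and 333 bp, 638 and 2014 bp), Crem (1213 and 969 bp, 1116 and 1685 bp) and the chromatin reader Brdt (811 and 809 bp, 525 and 1160 bp). Among 24 genes for H3K4 methylation or its removal 14 were kept (58.3%) and 0 gained or lost, and 20 had a peak in at least 1 of the 4 lists. Prdm9, whose product is known for its role before pachynema, was kept with peaks of 692 and 180 bp at early and 196 and 496 bp at late pachynema. Kmt2b, Kmt2c, Kmt2d, Setd1b and Men1 had peaks in the first early and the second late list and in neither of the other pachynema lists.

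Proteasome genes were kept at 34 of 42 members and respiratory chain genes at 39 of 58 (81.0% and 67.2%). Members with a peak in at least 1 of the 4 pachynema lists numbered 37 and 54. In both gene lists 0 were gained or lost, where the shares over all coding genes are 0.741% and 0.491%. Sperm metabolism genes had 12 of 31 kept and 0 gained or lost, and their peaks were at 15 and 12 members in the early, 15 and 18 in the late and 20 and 22 in the diplonema libraries. Genes of spermatid chromatin had 6 of 25 kept and 0 gained or lost. Of the 5 spermatid markers Prm1, Prm2, Tnp1, Tnp2 and Acrv1, none had a peak in any of the 10 H3K4me3 lists. Hox cluster genes had peaks at 2 and 31 of 39 members in the leptonema lists, 4 and 6 at zygonema, 1 to 3 in the 4 pachynema lists and 1 and 8 at diplonema.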
